A study of Mus musculus with 22 samples.

Results

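Heavy polysomal mRNA was compared with total mRNA in mouse liver 10 h after injection of tunicamycin (Tm). The comparison covered 6 of the 22 samples in the series, namely the 3 total RNA libraries and the 3 heavy polysomal libraries whose labels give that time point. All of the mice were C57BL/6 males 5 weeks old, named WT in the titles of the 10 h samples, that received 0.1 mg/kg Tm intraperitoneally, so the 10 h comparison is one of 2 RNA fractions within treated livers and holds no untreated animals. Total RNA was isolated from liver tissue, and heavy polysomal RNA from the pooled sucrose gradient fractions that carry more than 3 ribosomes per mRNA. Libraries were made from poly(A) RNA with a stranded kit, from 2 µg of total RNA and 0.5 µg of polysomal RNA, so input and fraction cannot be told apart. The labels name a library pool for each sample and put the 10 h samples in another pool than the other times, with separate tables, while the methods speak of 1 pool for all libraries. Libraries are called here by the number of their read group in those tables (total 0, 1 and 2, and heavy polysomal 0, 1 and 2), and the tables do not say which listed sample each number is. The methods give 3 animals per time point, so both fractions can come from the same 3 mice, but the labels tie no library to a mouse, and the p-values given here measure the spread between these libraries.

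Actively translated mRNAs carry several ribosomes at once and sediment deep into a sucrose gradient, so the share of an mRNA found in heavy polysomes relative to its share of total mRNA is read as a measure of how well it is loaded with ribosomes. Tm blocks N-linked glycosylation in the endoplasmic reticulum and sets off the unfolded protein response, in which the kinase PERK phosphorylates eIF2α and initiation at most mRNAs slows for a time before it recovers. Long and short mRNAs do not enter heavy polysomes alike, because a short coding region has room for few ribosomes. The libraries were scaled to a common level, and a change shared by all mRNAs is not visible in such values.

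The second pool's table held 47174 loci, of which 47120 had a complete estimate in all 6 libraries. The 54 others were left out. The fragments listed for them came to between 3.20% and 9.81% of a library, and these shares are lower limits, since a locus skipped for too many fragments is listed at 0. After removal of loci with too few fragments, 13195 loci were tested, and 10354 of these had a mean of at least 50 fragments per library and were used wherever spread or rank is described. The files name loci by number only and pair them with no gene name or position. Liver markers and gene groups were therefore not analysed here, and loci are described by level and by relative length. Relative length is the effective length implied by the fragments and the FPKM of a locus, divided by that of the median tested locus.

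Before any comparison of the fractions, 1 library in each group stood apart from the others. Depth, as the sum of listed fragments, ran from 10.8 M in heavy polysomal 0 to 26.9 M in total 0. The 4 other libraries held between 17.3 and 25.5 M. The sums are lower limits where loci were skipped for too many fragments. Such loci numbered 20, 1 and 0 in total 0, 1 and 2, and 0, 25 and 11 in heavy polysomal 0, 1 and 2. Heavy polysomal 0 was the shallowest and detected 16624 loci, against 17795 to 18835 in the other libraries at the same depth. Among loci with a complete estimate, its 10 most abundant took 17.0% of the fragments at such loci, against 11.2% to 11.9% elsewhere. Total 1 had the largest TMM scaling factor, 1.15 against 0.900 to 1.02 in the other 5, while its depth, 22.1 M fragments, lay within that of the others.

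Distances between libraries showed the same pair. Total 0 and total 2 correlated across loci with r = 0.982 on the log2 scale, and heavy polysomal 1 and 2 with r = 0.985. Total 1 correlated with its own group at 0.933 and 0.911, and heavy polysomal 0 with its own group at 0.919 and 0.895. These 4 values lay within the range of the 9 pairs that join a polysomal and a total library, from 0.893 to 0.965. That range includes pairs with total 1 or heavy polysomal 0. The cross-fraction pairs without them had r from 0.944 to 0.965, above all 4 values. The lowest of those 9 was the pair of heavy polysomal 0 with total 1. As the SD across loci of the log2 difference, the distances were 0.368 for total 0 against total 2 and 0.334 for heavy polysomal 1 against 2, but 0.703 and 0.799 for total 1 against its group and 0.783 and 0.889 for heavy polysomal 0 against its group. Heavy polysomal 0 lay closer to both total 2 (0.639) and total 0 (0.724) than to either library of its own label. Total 1 lay closest to total 0, and its distances to heavy polysomal 1 and 2, 0.766 and 0.764, fell between its distances to the 2 other total libraries. Each of these correlations is across loci, which are not independent replicates.

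**Figure D1:**
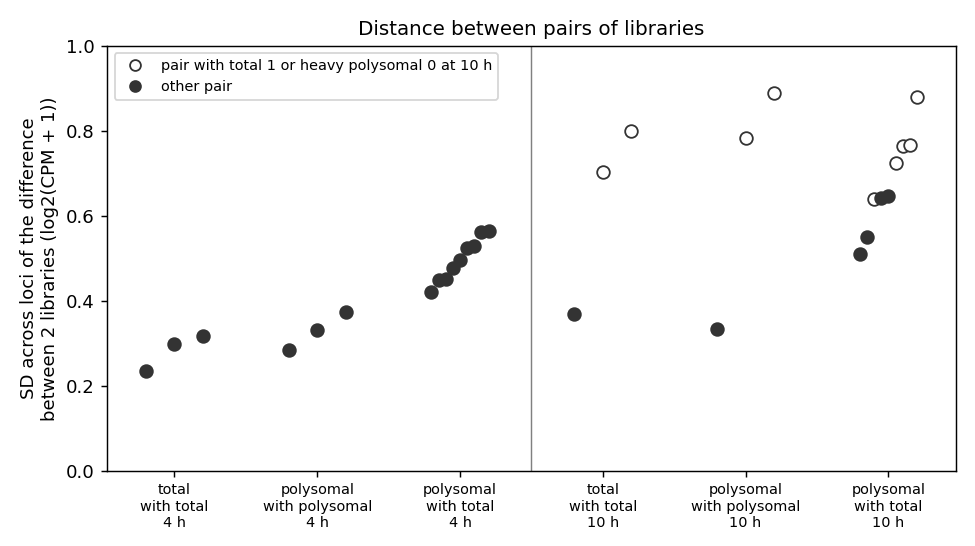
Each point is a pair of libraries, and the vertical axis gives the SD across loci of their difference in log2(CPM + 1) at 4 h (left of the line) and at 10 h (right), for pairs within total mRNA, within heavy polysomal mRNA and across the fractions. Open points are pairs that include total 1 or heavy polysomal 0 at 10 h. At 10 h these open points lie between 0.639 and 0.889, above the 2 filled within-group points at 0.334 and 0.368, and at 4 h every pair within a fraction lies below every pair across fractions.

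Heavy polysomal 0 was also singular at a small group of loci. In this library 23 loci were at least 3-fold above all 5 other libraries and 46 at least 3-fold below them, while total 1 had 38 of each. In total 0, total 2 and heavy polysomal 1 there were none of either, and heavy polysomal 2 had 3 above and 0 below. The 23 loci took 6.45% of the fragments of heavy polysomal 0, against 0.423% to 0.607% in the other libraries. One of them had 18824 CPM (TMM-scaled counts per 1000000 fragments) in heavy polysomal 0 and 65.4 to 288 CPM elsewhere, and another 4393 CPM against 3.88 to 7.10 CPM. They were short, with a median relative length of 0.356. The 38 loci above the rest in total 1 were long in the median (1.38) and held 0.601% of its fragments, against 0.0803% to 0.119% elsewhere. The counts of calls, the ratio of the fractions, its trends and the shared abundant loci are therefore given with and without these 2 libraries. The part that input, depth or sample identity had in this was not tested.

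The comparison of the fractions asked which mRNAs were over- or under-represented in heavy polysomes relative to total mRNA 10 h after Tm. With all 6 libraries none passed: edgeR's quasi-likelihood test called 0 of 13195 loci, or 0% (Benjamini-Hochberg adjustment, threshold 0.05, difference of at least 2-fold), and also 0 with no minimum fold. The smallest adjusted p was 0.461. At an unadjusted p under 0.05 there were 911 loci (6.9%), of which 601 were higher and 310 lower in heavy polysomes. That lean towards higher loci depended on the scaling, since upper-quartile normalization gave 457 higher among 887. The biological coefficient of variation, the typical relative spread of a locus between libraries of a fraction, was 0.354.

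Loci whose 3 polysomal values lay all above or all below the 3 total values numbered 1666 (12.6%), of which 902 were higher and 764 lower in heavy polysomes. This split turned with the scaling, to 725 higher and 1000 lower with upper-quartile normalization and to 811 and 884 with the authors' size factors. Without total 1 and heavy polysomal 0 the count was 8124 of 13363 (60.8%), with 2 libraries against 2. Full separation without any difference is more likely with 2 against 2 than with 3 against 3, so these shares are not on one scale. The next values are for the 1666 loci of all 6 libraries. Among those with a mean of at least 50 fragments, the median difference was 0.68 on the log2 scale for 738 higher loci and 0.53 for 556 lower loci. A difference of at least 2-fold was found at 173 of the former and 37 of the latter. The higher loci had a median relative length of 0.656 and the lower loci of 1.11. For a single locus with 3 libraries against 3, the smallest p of a two-sided exact permutation test is 0.1, so no locus could pass on its own values. With no difference between the fractions, 0.1 is also the share of loci expected to separate fully.

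The ratio of mean polysomal to mean total level had a median of 0.01 on the log2 scale and an SD of 0.41 over the 10354 loci. It lay within 1.5-fold at 86.9% of them. Without total 1 and heavy polysomal 0 the SD was 0.54 and the share within 1.5-fold 73.0%. With all 6 libraries the 5th and 95th percentiles were -0.57 and 0.74, and without these 2 libraries -0.77 and 0.97. The ratio was at least 2-fold higher in heavy polysomes at 227 loci (2.19%) and at least 2-fold lower at 60 (0.579%). Averaging over 3 libraries hid wide single ratios: a polysomal library over a total library had an SD from 0.509 (heavy polysomal 1 over total 2) to 0.881 (heavy polysomal 0 over total 1).

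Tools that estimate the spread in other ways gave different counts on the same libraries. DESeq2 called 70 of the 13195 loci (0.531%), 59 higher and 11 lower in heavy polysomes, and gave 3346 others no adjusted p. Each of the 70 had polysomal libraries that did not overlap the total libraries, against 12.6% of all tested loci. The 59 higher loci had a median relative length of 0.180 and the 11 lower loci of 0.489, both below the median tested locus. edgeR's quasi-likelihood test over all 24331 loci with at least 1 fragment called 161 (0.662%), 123 higher and 38 lower, and 141 of these were among the 13195. limma voom with a quality weight for each library called 957 loci (7.25%), 648 higher and 309 lower. It gave total 1 a weight of 0.289 and heavy polysomal 0 a weight of 0.259, and the 4 other libraries weights from 1.15 to 4.06. It thus drew mainly on the other 4. At 447 of its 957 loci (46.7%) the fractions did not overlap in the 6 libraries, against 12.6% of all tested loci. A lack of overlap goes with a small p on the same values, so it is no separate check of these lists.

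Leaving out total 1 and heavy polysomal 0 together, an alternative chosen after their values were seen, gave 966 of 13363 loci (7.23%) by edgeR's quasi-likelihood test, 652 higher and 314 lower in heavy polysomes. With no minimum fold there were 1894. Loci called higher had a median relative length of 0.798 and those called lower of 0.556, over the members also tested in the 6 libraries. That order is the reverse of the one with DESeq2 (0.180 and 0.489) and with limma voom (0.446 and 0.725). The coefficient of variation fell to 0.178, which follows in part from the removal of the 2 libraries farthest from their groups. Of these 966 loci, 599 (62.0%) were among the 957 of limma voom (62.6% of that list), and all 599 had the same sign. Both lists rest mainly on the same 4 libraries, so their overlap is no independent check. No other pair made of 1 total and 1 polysomal library did this: the other 8 fits of 4 libraries called between 0 and 2 loci, with coefficients of variation from 0.289 to 0.438. Leaving out a single library called 0 loci in each of the 6 cases. Without heavy polysomal 0 the count at an unadjusted p under 0.05 was 2148, and without total 0 it was 513.

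The 2 libraries left out did not carry the same differences. They were left out because they stood apart, and with all 6 libraries 0 loci were called. That choice favours loci where these 2 differ from the other 4, so the values below describe the disagreement and do not test it. Of the 652 loci called higher from 4 libraries, 633 were also tested in the 6, and heavy polysomal 0 lay above total 1 at 281 of them (44.4%). The median difference between these 2 libraries over the 633 loci was -0.15 on the log2 scale, where the 4 other libraries gave a median of 1.27. Of the 314 loci called lower, 306 could be read, and heavy polysomal 0 lay below total 1 at 104 (34.0%), with a median of 0.33 against -1.22 in the 4 libraries. Over all 13088 loci tested in both sets, heavy polysomal 0 lay above total 1 at 49.9%. The 2 libraries left out thus lay on the side of their label at fewer called loci, higher and lower, than the share among all loci.

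The reversal was uneven over locus length. With loci split by relative length into 3 equal groups, in the shortest group heavy polysomal 0 lay above total 1 at 71.2% of all loci, at 75.2% of the 290 loci called higher and at 72.6% of the 197 called lower. In the middle group it lay above total 1 at 49.3% of all loci, at 25.7% of the loci called higher and at 58.4% of those called lower. In the longest group the shares were 29.5% of all loci, 13.5% of 207 loci called higher and 43.8% of 32 called lower. Short loci thus differed between the 2 libraries mostly in 1 direction, whichever way they differed in the other 4. In the longest and middle groups the loci called higher fell below the share of all loci and those called lower fell above it.

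**Figure D2:**
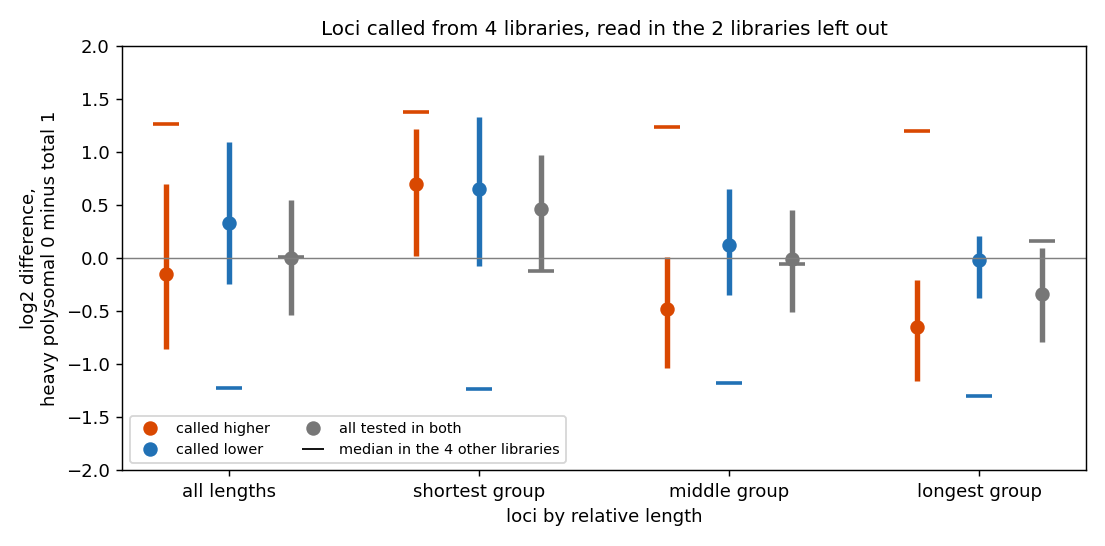
Points give the median log2 difference of heavy polysomal 0 minus total 1, with bars from the 25th to the 75th percentile, for loci called higher (orange) or lower (blue) from the 4 other libraries and for all loci tested in both sets (grey), over all lengths and in each of 3 equal groups by relative length. Short horizontal marks give the median difference in the 4 other libraries. For loci called higher the marks lie between 1.19 and 1.37, while the points fall from 0.70 in the shortest group to -0.65 in the longest.

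Trends with locus length differed between libraries of the same fraction. Loci were split by relative length into 10 equal bins, and each library was set against the mean of all 6 on the log2 scale. In total 1 the median difference was -0.56 in the shortest bin and climbed from bin to bin to 0.24 in the longest. Heavy polysomal 0 ran the opposite way, from 0.31 to -0.26, and total 2 did so too, from 0.25 to -0.22. Heavy polysomal 2 went from -0.14 in the second shortest bin to 0.29 in the longest, while total 0 and heavy polysomal 1 lay between -0.05 and 0.05 in all but the shortest bin. Total 2 and heavy polysomal 0, of different fractions, thus ran the same way over length relative to the mean of the 6. That mean includes total 1, which had the widest range, so part of an opposite trend in another library mirrors total 1. Total 1 and heavy polysomal 2 both climbed from the second bin on, but in the shortest bin they lay at -0.56 and 0.01.

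As a single value per library, the median of the shortest bin minus that of the other loci was -0.21, -0.59 and 0.27 in total 0, 1 and 2, and 0.35, 0.22 and -0.03 in heavy polysomal 0, 1 and 2. Total 2 lay above 2 of the polysomal libraries, so the groups overlapped. The mean was -0.18 ± 0.43 (SD, n = 3) in total mRNA and 0.18 ± 0.19 (SD, n = 3) in heavy polysomes, a difference of 0.35 that did not pass a two-sided exact permutation test (p = 0.3, n = 3 per fraction). Without total 1 and heavy polysomal 0 the difference was 0.03 (exact permutation p = 1, n = 2 per fraction), a design too small to pass.

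The ratio of the fractions followed these profiles. With 6 libraries its median was 0.31 in the shortest bin and between -0.03 and 0.03 in the other 9. Without total 1 and heavy polysomal 0 it was 0.07 in the shortest bin, -0.20 in the next, and climbed to 0.27 in the longest. A trend of higher polysomal representation with length was thus seen in the mean of those 4 libraries and not in that of the 6. It lay mostly in 1 library per fraction. From the second bin to the longest, heavy polysomal 2 went from -0.14 to 0.29 and total 2 from 0.24 to -0.22. Heavy polysomal 1 went only from 0.005 to -0.010 and total 0 from 0.037 to -0.051. Removing the trend with length from each library left 0 loci called by edgeR's quasi-likelihood test, 1044 at an unadjusted p under 0.05, and a coefficient of variation of 0.334.

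**Figure D3:**
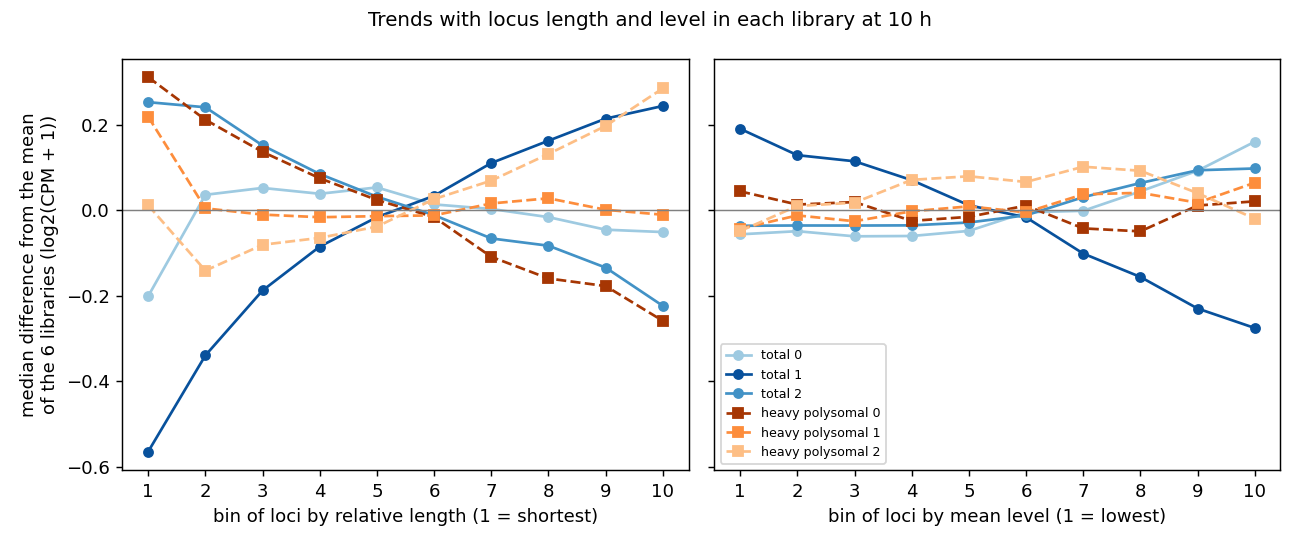
Lines give, for each library at 10 h, the median difference from the mean of the 6 libraries in log2(CPM + 1), over 10 equal bins of 10354 loci ordered by relative length (left) or by mean level (right). Total libraries are circles with solid lines and heavy polysomal libraries squares with dashed lines. Total 1 runs from -0.56 to 0.24 with length and from 0.19 to -0.28 with level, the widest range in each panel.

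By level, total 1 again had the widest range, and it is again part of the mean. Its median difference from the mean fell from 0.19 in the bin of loci with the lowest level to -0.28 in the bin with the highest, while total 0 went from -0.06 to 0.16. The 3 polysomal libraries stayed between -0.05 and 0.10 in all 10 bins. The ratio of the fractions had medians between -0.06 and 0.05 over the bins by level, and between -0.11 and 0.11 without total 1 and heavy polysomal 0.

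Among loci with a mean of at least 50 fragments and fractions that do not overlap, the 2 with the smallest p in each direction are given by library. None passed the test, each with an adjusted p of 0.461 by edgeR's quasi-likelihood test (unadjusted from 0.000255 at XLOC_016471 to 0.000323 at XLOC_016306). At XLOC_016471, a locus longer than most (relative length 1.57), total 0, 1 and 2 held 24.4, 15.3 and 28.8 CPM, and heavy polysomal 0, 1 and 2 held 76.8, 74.8 and 65.4 CPM. The lowest polysomal value was above the highest total value, and the difference was 1.66 on the log2 scale (SE 0.30). XLOC_002531 was short (relative length 0.133). It held 6.18, 10.2 and 11.8 CPM in the total libraries and 29.8, 34.5 and 27.4 CPM in the polysomal ones. The groups lay apart at this locus as well, by 1.70 on the log2 scale (SE 0.31).

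Lower in heavy polysomes was XLOC_018044 (relative length 0.481), with 187, 162 and 176 CPM in the total libraries and 72.6, 57.8 and 51.4 CPM in the polysomal ones. All polysomal values were below all total values, by -1.53 on the log2 scale (SE 0.28). XLOC_016306 (relative length 0.516) held 50.8, 41.5 and 55.6 CPM in total mRNA and 19.0, 20.7 and 16.4 CPM in heavy polysomes. Its difference was -1.40 (SE 0.26). The lack of overlap at these 4 loci was fixed by their choice. The difference with any 1 library left out stayed between 1.44 and 1.86, 1.48 and 1.90, -1.68 and -1.43, and -1.51 and -1.30, in the order above. With the 2 libraries left out together, the adjusted p by edgeR was 0.00380, 0.00384, 0.00200 and 0.00375. By DESeq2 it was 0.00291, 0.00291, 0.00118 and 0.00382 with all 6. The loci were chosen for the smallest p in these same libraries, so these values are no independent check.

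**Figure D4:**
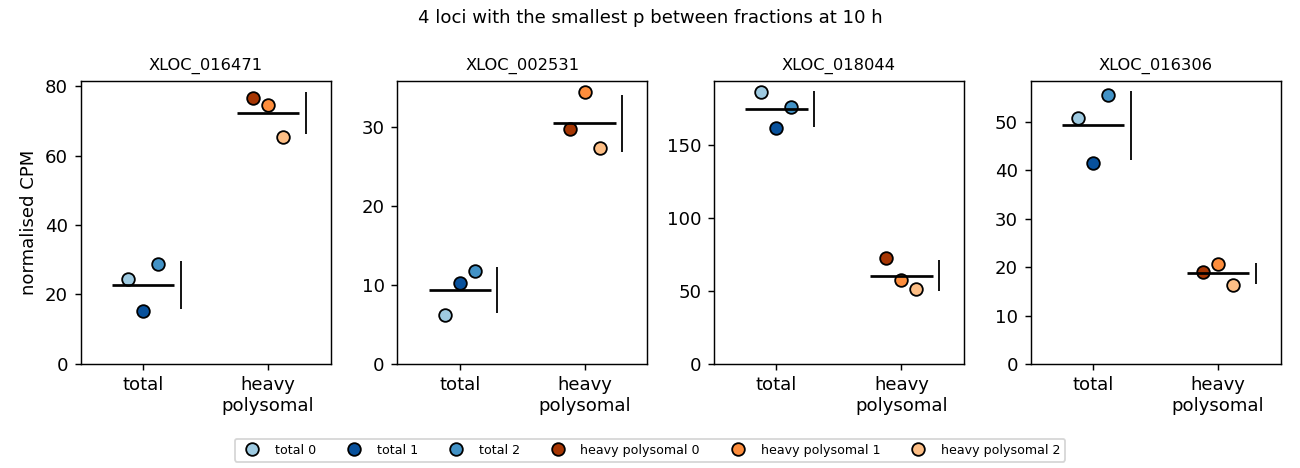
Points give the TMM-scaled CPM of each library at 10 h for 4 loci, total mRNA in blue and heavy polysomal mRNA in orange, with the group mean as a horizontal line and its SD (n = 3) as a vertical bar. The fractions do not overlap at any of the 4, with polysomal means of 72.3 and 30.5 against total means of 22.8 and 9.39 at the 2 higher loci, and of 60.6 and 18.7 against 175 and 49.3 at the 2 lower loci.

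Among the tested loci, which do not include those skipped for too many fragments, the most abundant were compared between libraries. Ranked by FPKM, which is per length, any 2 libraries of different fractions shared 69 to 85 of their top 100 loci, against 73 to 85 for 2 total libraries and 72 to 91 for 2 polysomal ones. Without total 1 and heavy polysomal 0 the pairs across fractions shared 78 to 85, against 85 for total 0 and 2 and 91 for heavy polysomal 1 and 2. In all, 54 loci were among the top 100 of every library. Over these 54 the log2 ratio of the fractions ran from -0.76 to 1.68 with a median of 0.24, and 36 were above 0. Without the 2 libraries the median was -0.01 and 27 were above 0. The libraries of the fractions did not overlap at 6 of the 54 (11.1%), 4 higher and 2 lower in heavy polysomes, near the 12.6% of all tested loci. Loci above 50 FPKM numbered 1798, 1472 and 1853 in the total libraries and 1905, 1784 and 1657 in the polysomal ones, with total 1 the lowest and heavy polysomal 0 the highest.

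The same comparison at 4 h after Tm, made in the first pool's table, is given for its values only, since the tables were normalized separately, number their loci differently and were not tested against each other. There edgeR's quasi-likelihood test called 570 of 12577 loci (4.53%), 169 higher and 401 lower in heavy polysomes, and 5503 loci (43.8%) had fractions that did not overlap. The coefficient of variation was 0.144, against 0.354 at 10 h. With the read group number as a block, which pairs the libraries at 4 h, the values there were 0.0960 and 615 loci (4.89%). The log2 ratio had an SD of 0.431 at 4 h, and at 10 h of 0.406 with 6 libraries and 0.535 without total 1 and heavy polysomal 0. Its tails leaned in opposite directions. At 4 h, 28 of 9614 loci (0.291%) were at least 2-fold higher and 231 (2.40%) at least 2-fold lower. At 10 h these were 227 (2.19%) and 60 (0.579%) of 10354. Without total 1 and heavy polysomal 0 the 10 h counts were 457 (4.41%) and 171 (1.65%). Other counts at 10 h changed their lean with the scaling, and the counts of 2-fold ratios are given for TMM scaling only. Whether the times differ was not tested.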

How the data were processed

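Per the methods and the submitters' processing notes, the authors aligned single-end reads to GRCm38 with TopHat2 2.0.13 and ran Cuffdiff of Cufflinks 2.2.1, with corrections for fragment bias and reads matching several places; the annotation release is not given in the sources used here. The authors deposited, per locus and read group, raw counts of fragments, FPKM, and a signal made by scaling fragments with a size factor per library. Cuffdiff skips loci with too many fragments and lists them at 0; these and failed loci were left out. In all, 105 read groups that belong to no listed library of this comparison were not used.

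In R 4.3.3, edgeR 4.0.16 was run on the raw counts with TMM scaling, filterByExpr and its quasi-likelihood test under Benjamini-Hochberg adjustment, with fraction as the only term. Levels are TMM-scaled CPM, compared as log2(CPM + 1), which understates differences at low loci. Calls needed an adjusted p under 0.05 and 2-fold. FPKM served for relative length and ranks, and the scaled signal for the authors' size factors. Named loci are those with a mean of at least 50 fragments and fractions that do not overlap with the smallest p, 2 per direction. Alternatives used DESeq2 1.42.0, limma 3.58.1, upper-quartile scaling and other filters; summaries used pandas 2.3.3, scipy 1.17.1 and numpy 2.4.6 under Python 3.11.15. The edgeR, DESeq2 and limma voom fits were tested on simulated counts in which no library stood apart. The other steps were not tested in this way. At 4 h, deviations from the group means correlated between same-numbered libraries (r 0.449 to 0.485, against -0.321 to -0.128 for unlike numbers), which pairs them there; this comes from the data, and at 10 h it did not hold. The 10 h comparison, its loci and its lists were chosen with earlier results of these data known. Depth, as the sum of listed fragments, is between 10.8 and 26.9 M per library.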

Additional observations from a re-analysis of the deposited data

How the results depend on the processing

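At 10 h, the count of 0 called loci held under upper-quartile scaling, the authors' size factors, a minimum of 10 fragments in every library, incomplete loci kept, removal of the length trend and each library left out (0 to 0). It was 70 with DESeq2, 957 with limma voom quality weights (2075 with no minimum fold), 161 of 24331 with all loci of at least 1 fragment, 966 without total 1 and heavy polysomal 0 (1894 with no minimum fold) and 2 without total 2 and heavy polysomal 0. The count at an unadjusted p under 0.05, 911, ran from 513 to 2148 with 1 library left out, the lowest without total 0 (513) and without heavy polysomal 1 (528) and the highest without heavy polysomal 0. It was 4299 with limma voom and 1660 with all loci of at least 1 fragment. With total 0 left out beside heavy polysomal 0, 1 or 2 it was 1464, 229 and 338. With total 1 left out beside them it was 4293, 514 and 603, and with total 2, 2131, 507 and 747. The coefficient of variation ran from 0.295 to 0.388 with 1 library left out was 0.178 without total 1 and heavy polysomal 0, and 0.289 to 0.438 with another pair left out. Fits chosen after seeing the data are those that leave out 2 libraries or remove the length trend. The 4 named loci kept their sign in each of 23 alternatives, which their choice for fractions that do not overlap largely fixed. They passed in 4 of the alternatives, with adjusted p from 0.000572 or 0.000706 (limma voom) to 0.99999 (edgeR). The alternatives use the same libraries that served to choose these loci.

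With a replicate block for read group numbers, 0 loci were called and 624 had an unadjusted p under 0.05. Same-numbered libraries did not deviate together at 10 h (lowest r -0.241 and highest -0.0576, where libraries of unlike number gave -0.0606 to 0.176), and the numbers were not taken as a pairing. At 4 h leaving out 1 library gave 454 to 627 called loci.

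With 3 libraries per fraction and a coefficient of variation of 0.354, edgeR called none of the 13195 loci, which does not show that the fractions were alike. The same test called 161 over all loci with at least 1 fragment, and 0 with at least 10 fragments in every library. Of the 161, 15 had a library at 0 fragments, and the smallest adjusted p of that edgeR fit was 1.56e-57. Among the 141 that are also in the 13195, the fractions did not overlap at 89 (63.1%), against 12.6% of the 13195. The cause of these differences was not tested.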
